A study of Mus musculus with 18 samples.

Results

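The comparison described here is that of brain tissue labelled thalamus from mice given Coll IV with the same tissue from mice given saline, in the libraries numbered 1 to 3 of each group. These are 6 of the 18 libraries of the series: controls 1, 2 and 3 (wild-type mice, saline) and models 1, 2 and 3 (wild-type mice, Coll IV). The remaining group, intervene (wild-type mice, Coll IV and remodelin, an inhibitor of the RNA acetyltransferase NAT10), is shown only beside them. The series concerns thalamic haemorrhage; injection of bacterial collagenase is a common way to cause one, but what Coll IV stands for is not spelled out. The labels give no age, sex, strain, dose or time after injection, and do not say whether each library came from a separate animal, so tests measure the spread between these samples, which may be technical.

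The 6 libraries were chosen by measured values: in the saline and in the Coll IV group, libraries 1 to 3 held far more RNA of thalamic neurons than libraries 4 to 6. Tcf7l2, a transcription factor of thalamic neurons, stood at 101, 104 and 104 CPM (counts scaled to the size of each library) in controls 1 to 3 and at 53.9, 147 and 72.8 in models 1 to 3. It stood at 4.85, 3.98 and 5.19 CPM in controls 4 to 6 and at 8.27, 10.9 and 4.92 in models 4 to 6. The marker was thus high in all 6 libraries described and low in libraries 4 to 6. That follows from the choice and is no check of the thalamus label. Because these values set the choice, they are given without a test. Igfn1, Hkdc1 and Ttr were likewise singled out from their values in this comparison, and their levels are described without a test.

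The thalamus relays sensory and motor signals to the cortex. It borders the ventricles, whose walls are lined by ciliated ependymal cells and which hold the choroid plexus, a vascular fold covered by a secretory epithelium that makes cerebrospinal fluid and secretes transthyretin, the carrier of thyroid hormone and retinol encoded by Ttr. Collagenase digests the collagen of vessel basement membranes, and the blood that escapes brings haemoglobin, leukocytes and plasma proteins into the tissue.

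Control 1 held 118461420 counts and the other 5 libraries 28481225 to 33773652, and mitochondrially encoded genes took 10.5 to 17.6% of counts in the 6. The libraries also differed in how much RNA of neighbouring regions they held, within as well as between groups. Genes of striatal medium spiny neurons had a mean log2 CPM of 6.44 in control 1 and of 3.32 to 3.75 in the other 5 libraries. Hypothalamic genes had a mean log2 CPM of 5.22 in control 2, 4.20 in control 3 and 4.005 in model 3, and of 2.84 to 2.87 in the other 3. Cortical and hippocampal genes had a mean log2 CPM of 6.27 in control 3 and 6.68 in model 1, and 4.08 in control 2, the lowest. Each result that touches these regions is given with the values of every library. In bulk tissue, fewer cells of a type and less RNA per cell cannot be told apart.

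**Figure D1:**
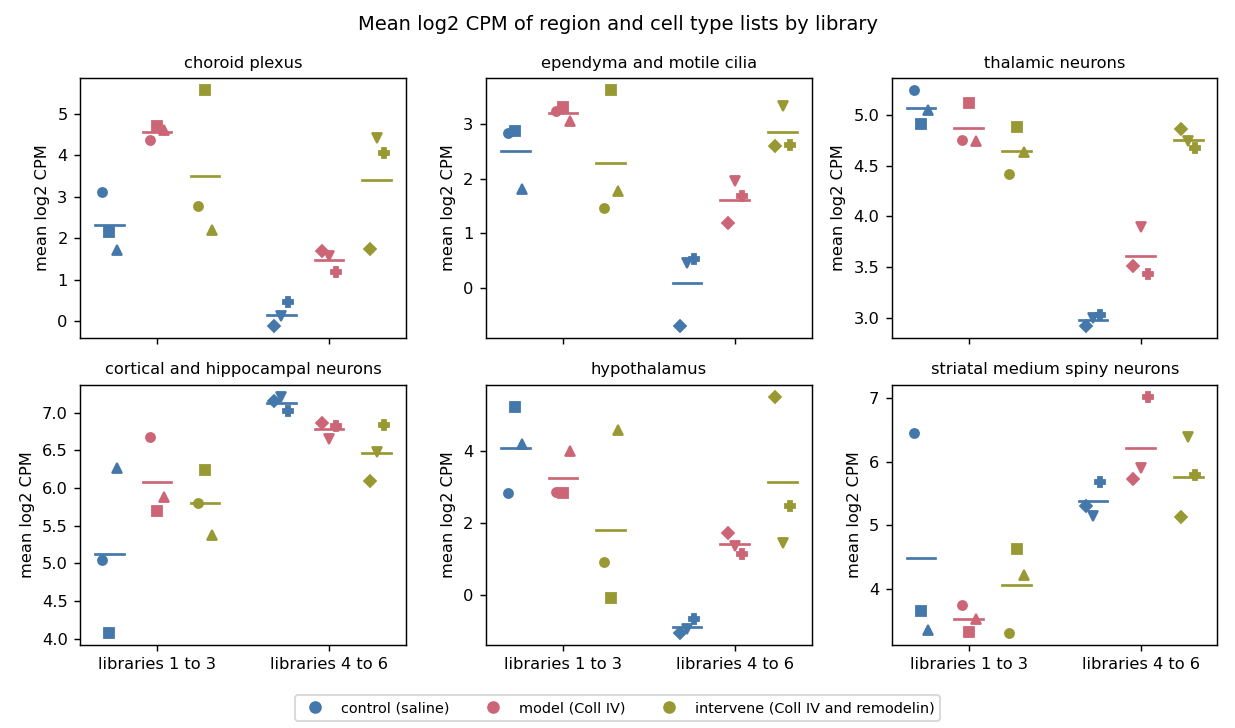
Mean log2 CPM of the members of 6 lists (y axis) in every library, by group and by replicate number; each point is a library (circle, square and triangle for 1, 2 and 3; diamond, inverted triangle and plus for 4, 5 and 6) and each line is the mean of 3. In libraries 1 to 3 the choroid plexus score was 1.70 to 3.10 in controls and 4.38 to 4.71 in models, while control 1 stood alone in the striatal list at 6.44.

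Of 50559 genes in the table, 18002 passed the expression filter. No gene passed an adjusted p of 0.05 in the edgeR quasi-likelihood test of model against control (0% of genes tested), and the lowest adjusted p was 0.198, for Trpv4. At an unadjusted p under 0.05 there were 812 genes, 455 of them higher in model (2.53% of genes tested) and 357 lower (1.98%). In 891 genes (4.95%) all 3 models stood above all 3 controls, and in 941 (5.23%) all 3 stood below. The number called depended on the tool: DESeq2 called 54 genes higher and 9 lower, limma-voom called 0, and limma on log2(FPKM + 1) called 10 higher and 1 lower. In a fit of the 12 control and model libraries with 4 means, added after the data were seen, 7 genes were higher and 0 lower: Enpp2, Trpv4, Fap, Cldn2, Hkdc1, Sostdc1 and Pon3. Hkdc1 was chosen from these values, so its place there supports nothing. Without control 1 the edgeR test called 10 genes higher, 7 of them in the choroid plexus list, and without model 3 it called 1 gene lower, Slc6a3. Control 1 held the most choroid plexus RNA of the controls, so larger folds in that list follow from leaving it out. The words higher and lower below describe the mean level, and no difference named in this comparison passed the main test.

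All 24 members of the choroid plexus list were tested and all 24 had a higher mean in model. Of these, 22 had an unadjusted p under 0.05 against 2.53% of all genes tested, and in 21 all models stood above all controls against 4.95%. Ttr is counted in both though it was chosen from its values, so its place there supports nothing. The median log2 fold change of the list was 1.71, against -0.004 over all genes tested. Leaving out 1 library at a time left 23 or 24 members higher, 19 to 23 of them with an unadjusted p under 0.05, and a median of 1.57 to 2.05. The list and the comparison were chosen with earlier results of these data in view, so these counts describe the libraries and are not independent evidence.

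Ttr, which encodes transthyretin, stood at 702, 24.0 and 71.9 CPM in controls 1, 2 and 3 and at 3212, 5548 and 4307 CPM in models 1, 2 and 3. The groups did not overlap, and control 1 stood far above the other controls. Ttr took 0.00250 to 0.0709% of all counts in the controls and 0.334 to 0.530% in the models. The intervene libraries 1, 2 and 3 stood at 566, 10103 and 65.1 CPM, so that 1 of them lay above every model and 2 lay within the range of the controls. In libraries 4 to 6 Ttr was listed at 0.266, 0.615 and 0.410 CPM in controls and at 95.7, 41.8 and 49.4 in models, all below the models numbered 1 to 3.

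Secreted and signalling proteins of this epithelium came next. Enpp2, which encodes autotaxin, the enzyme that makes lysophosphatidic acid, stood at 388, 263 and 260 CPM in controls and at 739, 931 and 861 in models (log2 fold change 1.47, SE 0.18, adjusted p 0.223 by edgeR). Kl, which encodes klotho, a co-receptor of FGF23, stood at 13.5, 4.87 and 9.95 CPM in controls and at 46.4, 58.2 and 46.5 in models (log2 fold change 2.40, SE 0.36, adjusted p 0.623 by edgeR). Sostdc1, an antagonist of BMP and WNT signals, stood at 6.28, 2.71 and 4.20 CPM in controls and at 18.4, 24.2 and 17.6 in models (log2 fold change 2.17, SE 0.30, adjusted p 0.465 by edgeR). In these genes every model exceeded every control, and control 1 was the highest of the controls. Wdr86, another member, stood at 1.58, 1.14 and 1.25 CPM in controls and at 4.87, 4.89 and 4.31 in models (log2 fold change 1.81, SE 0.23, adjusted p 0.223 by edgeR). F5, coagulation factor V, stood at 3.56, 0.678 and 0.737 CPM in controls and at 13.6, 17.4 and 16.0 in models (log2 fold change 3.12, SE 0.65). Without control 1, the control with the most choroid plexus RNA, its log2 fold change was 4.46 (adjusted p 0.00284 by edgeR), and that of Kcne2, below, was 5.01 (adjusted p 0.00398). Control 1 was the highest control in both genes, so a larger fold follows from leaving it out and supports nothing. No other fit with 1 library left out called either gene.

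The list also holds channels and transporters that move ions and water across the epithelium. Kcnj13, an inwardly rectifying potassium channel, stood at 7.24, 3.70 and 2.06 CPM in controls and at 24.1, 34.5 and 34.3 in models (log2 fold change 2.79, SE 0.45). Kcne2, a potassium channel beta subunit, stood at 3.33, 0.493 and 0.590 CPM in controls and at 13.9, 21.9 and 16.7 in models (log2 fold change 3.42, SE 0.74). Aqp1, the apical water channel, stood at 1.64, 0.431 and 0.0737 CPM in controls and at 7.96, 10.5 and 7.44 in models (log2 fold change 3.39, SE 0.78). In these genes every model stood above every control, and control 1 was the highest control each time. Slc4a5, a sodium bicarbonate cotransporter, stood at 2.26, 0.123 and 0.369 CPM in controls and at 7.15, 10.1 and 13.5 in models. Clic6, a chloride intracellular channel protein, stood at 25.5, 13.1 and 6.41 CPM in controls and at 36.8, 47.6 and 39.5 in models (log2 fold change 1.44, SE 0.47). Folr1, the folate receptor that carries folate into cerebrospinal fluid, stood at 2.07, 1.48 and 0.369 CPM in controls and at 8.08, 6.81 and 7.05 in models (log2 fold change 2.42, SE 0.50). Trpm3 and Slc5a5 were the 2 members above an unadjusted p of 0.05. Slc5a5, the sodium iodide symporter, had 24.5, 35.8 and 24.9 CPM in controls and 27.1, 24.9 and 36.5 in models, and the groups overlapped. Trpm3, a cation channel, had 70.7, 78.9 and 70.6 CPM in controls and 73.2, 95.1 and 93.2 in models, and the groups overlapped.

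The transcription factor OTX2, which the choroid plexus needs to form and to keep its state, was measured through Otx2, at 10.2, 10.0 and 7.22 CPM in controls and 11.2, 19.4 and 19.5 in models (log2 fold change 0.86, SE 0.24, adjusted p 0.986 by edgeR). Model 1 lay just above the controls, and models 2 and 3 lay well above them. The motif TAATCC, recognised by OTX-type homeodomains, was searched on both strands in the 250 bases before the start of each gene, in RefSeq promoter windows of GRCm38.p6. It lay in 2054 of 32851 windows (6.25%), and 2 of the 19 members of the choroid plexus list that have a window held it, Otx2 and Ace. A member counted if any of its windows matched, so the share of members and the share of windows are unlike measures. Ace, angiotensin-converting enzyme, stood at 17.7, 21.5 and 15.2 CPM in controls and 24.1, 42.4 and 44.1 in models (log2 fold change 1.02, SE 0.25). Abca4, a lipid flippase that is no member of the list, also held the motif. It is shown with Ace because both stood higher in every model, and the capitals mark the motif or its reverse complement; the windows end where annotated exons begin.
Abca4, chr3:122044210-122044442, plus strand: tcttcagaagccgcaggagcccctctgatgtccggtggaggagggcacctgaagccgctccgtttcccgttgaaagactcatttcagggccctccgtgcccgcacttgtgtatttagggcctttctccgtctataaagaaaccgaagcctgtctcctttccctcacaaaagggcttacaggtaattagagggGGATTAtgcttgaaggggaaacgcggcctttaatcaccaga
Ace, chr11:105967698-105967944, plus strand: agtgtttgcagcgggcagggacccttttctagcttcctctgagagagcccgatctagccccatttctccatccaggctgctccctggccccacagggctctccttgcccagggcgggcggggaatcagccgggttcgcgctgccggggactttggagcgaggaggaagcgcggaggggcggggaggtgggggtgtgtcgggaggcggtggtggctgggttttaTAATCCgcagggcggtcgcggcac
A match is a description of letters and does not show that OTX2 binds there.

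Several of the genes of lowest p lay outside the list, which does not name every gene of the choroid plexus. In intervene 1, 2 and 3 Abca4 stood at 2.18, 19.2 and 1.58 CPM and Cldn2 at 1.93, 18.8 and 1.13. That is the split seen in list members such as Kl (8.58, 109 and 7.81). The part of choroid plexus RNA in the levels of the genes below was not tested. Trpv4, an osmosensitive and mechanosensitive cation channel, stood at 2.31, 1.88 and 2.25 CPM in controls and at 6.88, 8.43 and 8.48 in models (log2 fold change 1.88, SE 0.19, adjusted p 0.198 by edgeR). Abca4 stood at 2.10, 2.40 and 1.40 CPM in controls and at 6.97, 8.70 and 7.44 in models (log2 fold change 1.96, SE 0.24, adjusted p 0.223 by edgeR). Krt8 and Krt18 encode the paired keratins of simple epithelia, and Krt8 stood at 1.62, 1.11 and 0.884 CPM in controls and at 4.38, 4.65 and 4.28 in models. In Trpv4, Abca4 and Krt8 the controls lay closer together than in Ttr or Kcne2, and all 3 models lay above them. Krt18 stood at 3.67, 3.14 and 2.28 CPM in controls and at 6.11, 9.85 and 9.10 in models (log2 fold change 1.45, SE 0.26). Cldn2, a claudin that forms cation- and water-permeable tight junctions, was named after its values were seen and stood at 1.72, 0.493 and 0.442 CPM in controls and at 6.45, 8.43 and 7.44 in models (log2 fold change 2.95, SE 0.51). Oca2, a melanosomal anion transport protein, stood at 0.368, 0.123 and 0.0737 CPM in controls and at 1.79, 2.50 and 1.73 in models (log2 fold change 3.16, SE 0.53). Fap, a serine protease of activated fibroblasts, stood at 0.669, 0.616 and 0.442 CPM in controls and at 2.37, 1.89 and 2.20 in models (log2 fold change 1.87, SE 0.29).

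**Figure D2:**
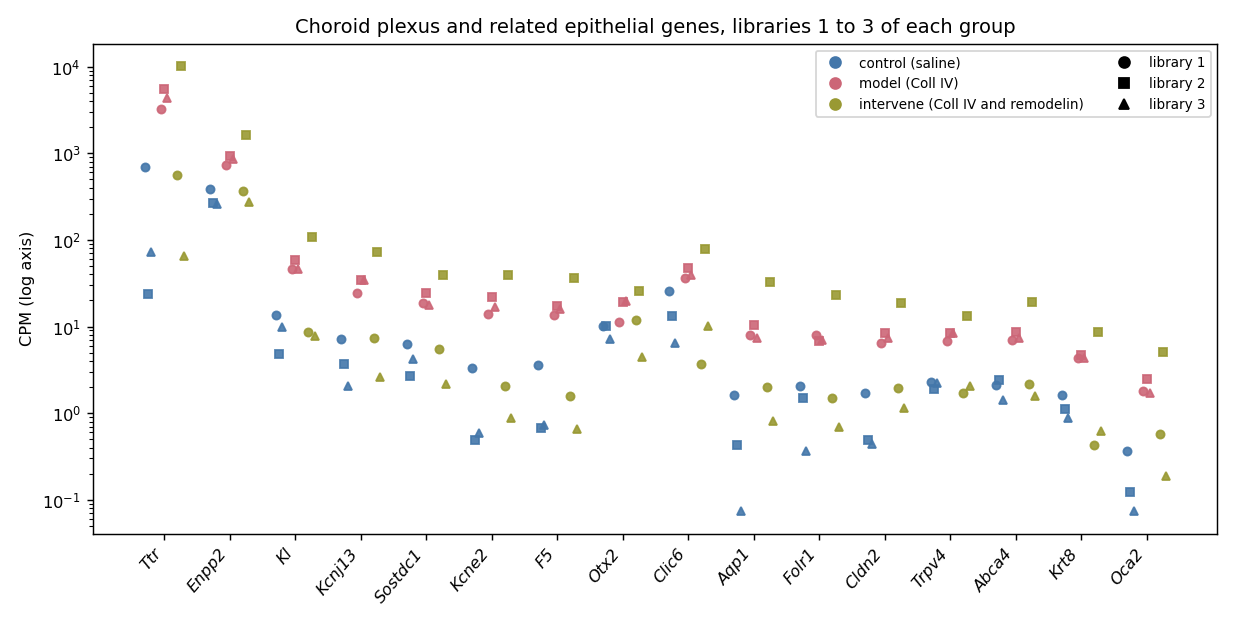
CPM on a log axis (y axis) of 16 genes of the choroid plexus and other epithelia (x axis) in libraries 1, 2 and 3 of control, model and intervene; each point is 1 library and the marker gives its number. The 3 model points lie above the 3 control points for each gene, and intervene 2 lies above every model point, while intervene 1 and 3 lie below every model, save intervene 1 in Otx2.

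In the intervene group the same genes split by library. Enpp2 stood at 371, 1646 and 276 CPM in intervene 1, 2 and 3, Kl at 8.58, 109 and 7.81, and Trpv4 at 1.72, 13.4 and 2.08. Intervene 2 thus lay above every model and intervene 1 and 3 lay near the controls. The summed level of the 24 list members was 538.2 to 1361 CPM in controls 1 to 3, 4386 to 7039 in models 1 to 3, and 1184, 12660 and 557.3 in intervene 1, 2 and 3. Libraries of 1 treatment thus differed in choroid plexus RNA as widely as the groups did, and how much of the plexus each sample held was not tested.

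Ependymal genes were shifted the same way by a smaller amount. Of the 16 members of the ependyma and motile cilia list, 15 had a higher mean in model, 4 had an unadjusted p under 0.05 (2.53% of all genes tested) and in 10 all models stood above all controls (4.95%), with a median log2 fold change of 0.72. Foxj1, the master regulator of motile cilia, stood at 35.2, 28.6 and 16.4 CPM in controls and at 35.7, 39.1 and 38.0 in models (log2 fold change 0.48, SE 0.25, adjusted p 0.986 by edgeR). Models 1 to 3 lay close together and control 3 lay far below the others. Dnah5, an outer dynein arm heavy chain, stood at 5.05, 4.74 and 3.24 CPM in controls and at 8.85, 6.34 and 6.36 in models. Mia stood at 4.02, 5.05 and 2.36 CPM in controls and at 7.46, 9.04 and 5.41 in models. Without 1 library at a time the list had 15 or 16 members higher. The number with an unadjusted p under 0.05 was 8 without control 1, 1 without model 1 and 2 without model 2, and the median was 0.44 without control 3.

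Igfn1, which encodes an immunoglobulin and fibronectin domain protein known from skeletal muscle, stood at 0.401, 0.493 and 0.442 CPM in controls 1, 2 and 3 and at 7.77, 1.15 and 4.40 in models 1, 2 and 3. Hkdc1, which encodes a hexokinase domain protein of glucose phosphorylation, stood at 0.944, 0.678 and 1.03 CPM in controls and at 4.44, 1.89 and 3.21 in models. The controls were tight in both genes and model 2 was the lowest of the models. The fitted log2 fold changes were 3.33 (SE 0.67) for Igfn1 and 1.84 (SE 0.37) for Hkdc1. The levels in controls 4 to 6 were 13.9, 11.9 and 12.3 CPM for Igfn1 and 16.5, 14.5 and 15.1 for Hkdc1, above every library of the 6, where Ttr was lowest. Some cortical genes gave this order among the models and others did not. Tbr1, a transcription factor of deep-layer cortical neurons, stood at 72.6, 21.9 and 42.4 CPM in models 1, 2 and 3, and Lamp5, a membrane protein of cortical neurons, at 167, 40.6 and 116. In controls Tbr1 stood at 16.1, 5.05 and 26.5 CPM and Lamp5 at 75.3, 30.1 and 52.6, so that the controls spread widely in both and lay close together in Igfn1. Slc17a7, the vesicular glutamate transporter of cortical neurons, stood at 126, 54.6 and 571 CPM in controls and at 866, 442 and 418 in models (log2 fold change 1.20, SE 0.87, adjusted p 0.986 by edgeR), and the groups overlapped, with model 3 rather than model 2 the lowest model. Summed over the list, cortical genes stood at 2158, 963.9 and 4762 CPM in controls and at 5780, 3499 and 3233 in models. Of the 16 cortical and hippocampal list members, 14 had a higher mean in model, 1 had an unadjusted p under 0.05 (2.53% of all genes tested) and none had all models above all controls (4.95%), with a median log2 fold change of 0.52. Without control 3 there were 8 with such a p and a median of 1.48, without model 2 there were 4, and the median was 0.26 without control 2. The part of cortical RNA in the levels of Igfn1 and Hkdc1 was not tested.

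**Figure D3:**
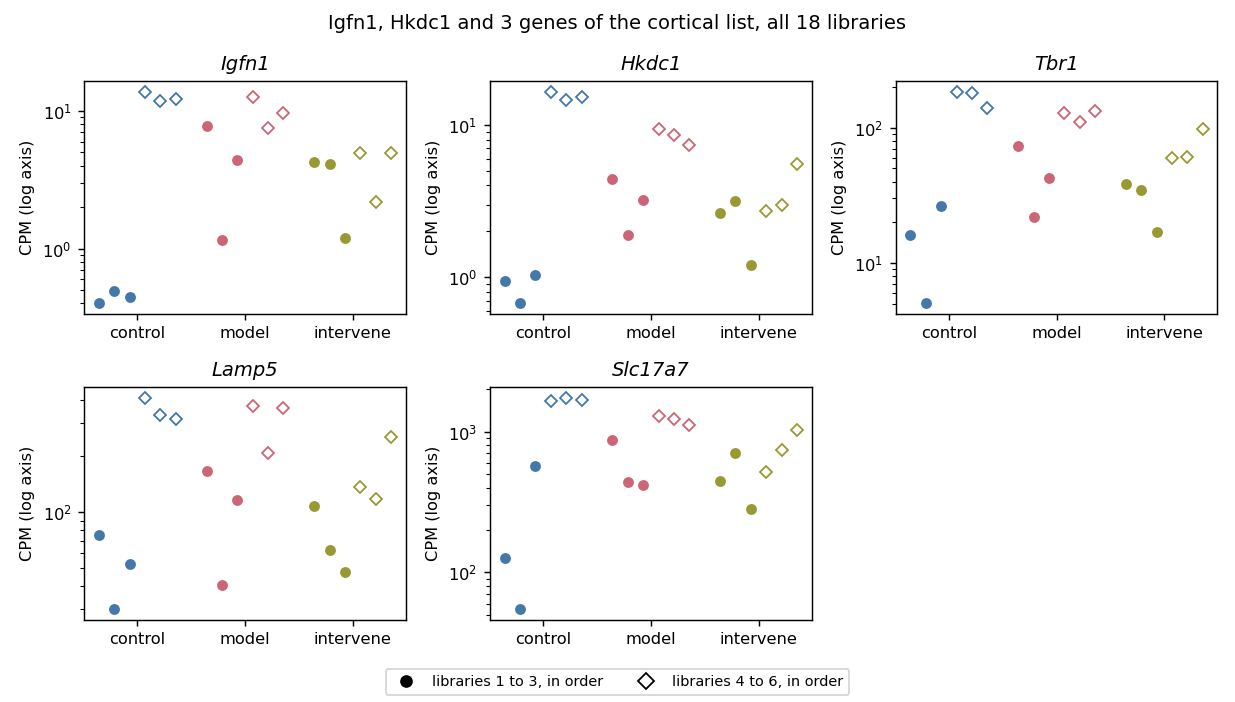
CPM on a log axis (y axis) of Igfn1, Hkdc1 and 3 cortical genes in all 18 libraries (x axis, by group); filled circles are libraries 1 to 3 and open diamonds libraries 4 to 6, each in order of number. Igfn1 and Hkdc1 were lowest in controls 1 to 3, at 0.401 to 0.493 and 0.678 to 1.03 CPM, and among models 1 to 3 model 2 was lowest in both, as in Tbr1 and Lamp5 but not in Slc17a7, where model 3 was lowest.

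Genes of TGF-beta signalling, which vessels, glia and the choroid plexus all express, had a slightly higher mean in model. In the TGF-beta list 15 of 20 members had a higher mean, 6 had an unadjusted p under 0.05 (2.53% of all genes tested) and in 6 all models stood above all controls (4.95%), with a median log2 fold change of 0.27. Tgfbr2, the ligand-binding TGF-beta receptor, stood at 12.3, 11.5 and 8.92 CPM in controls and at 17.5, 15.4 and 17.1 in models (log2 fold change 0.61, SE 0.15, adjusted p 0.900 by edgeR). Bmp6, a BMP ligand, stood at 8.18, 10.9 and 6.38 CPM in controls and at 13.015, 16.8 and 15.9 in models (log2 fold change 0.84, SE 0.21, adjusted p 0.900 by edgeR). Both were separated between the groups, whereas Bmp7, another BMP ligand, stood at 7.63, 12.8 and 7.44 CPM in controls and 8.51, 13.9 and 12.045 in models and overlapped. Id3, a target of BMP signalling, stood at 22.03, 30.8 and 29.4 CPM in controls and at 45.3, 35.6 and 34.1 in models. Tgfb1 stood at 6.79, 6.68 and 7.59 CPM in controls and at 7.09, 6.04 and 6.42 in models, and the groups overlapped. The number of members with an unadjusted p under 0.05 was 2 without control 1, 3 without model 3, and 4 to 7 without each of the other libraries.

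Of the 20 reactive astrocyte genes, 16 had a higher mean and 4 an unadjusted p under 0.05 (2.53% of all genes tested), with a median log2 fold change of 0.33. Without control 1 the median was 0.16 and 2 members had such a p, as many as without model 1. Vim, the intermediate filament of reactive astrocytes and ependyma, stood at 55.1, 69.8 and 55.7 CPM in controls and at 102, 90.5 and 84.5 in models (log2 fold change 0.62, SE 0.13, adjusted p 0.735 by edgeR). Gfap, the main astrocyte filament, stood at 244, 388 and 504 CPM in controls and at 557, 476 and 401 in models, and the groups overlapped. Of the 20 genes of reactive microglia and macrophages 18 had a higher mean and 1 an unadjusted p under 0.05, with a median log2 fold change of 0.39. Without model 1 it was 12 of 20, with a median of 0.083. Lgals3, galectin-3 of phagocytes, was the member with such a p and stood at 1.96, 1.60 and 1.99 CPM in controls and at 9.75, 4.18 and 3.09 in models (log2 fold change 1.61, SE 0.43, adjusted p 0.986 by edgeR). Model 1 carried the highest Lgals3, and it also carried the highest C3, the central complement protein, at 12.5 CPM against 2.77 to 3.17 in controls and 3.51 and 4.02 in models 2 and 3. Model 1 likewise held Il1b at 0.802 CPM, against 0.0616 to 0.100 in controls and 0.202 and 0.0595 in models 2 and 3. Il1b, Il6, Tnf and Ccl2 were among 9 of the 21 cytokine and chemokine genes below the expression filter. Of the 12 tested, Ccl5 stood at 0.451, 0.308 and 0.442 CPM in controls and at 0.925, 0.877 and 1.01 in models.

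Neutrophil genes were near the limit of detection. Of 12 neutrophil genes 3 were tested, and S100a8, a granule protein of neutrophils, stood at 0.351, 0.246 and 0.147 CPM in controls and at 1.30, 0.202 and 0.833 in models. Ly6g, a defining neutrophil surface protein, was at 0 in controls 1 and 3 and in all models and at 0.0616 CPM in control 2. Of 22 tested interferon-response genes 12 had a higher mean and 0 an unadjusted p under 0.05. Haemoglobin genes, which a haemorrhage would bring in, had a higher mean in model in 6 of 6 tested members of the erythroid list, none with an unadjusted p under 0.05, with a median log2 fold change of 0.22. Without model 3 only 3 of the 6 were higher, with a median of 0.045, while the median was 0.41 without control 1 and 0.45 without model 1. Hba-a1, an alpha globin, stood at 81.0, 60.0 and 60.9 CPM in controls and at 52.5, 108 and 114 in models, so that model 1 lay below every control. Hmox1, the haem-degrading oxygenase induced by haem, stood at 7.25, 5.91 and 7.52 CPM in controls and at 6.72, 5.26 and 6.78 in models (log2 fold change -0.14, SE 0.18, adjusted p 0.986 by edgeR). Hp, haptoglobin, which binds free haemoglobin, stood at 0.903, 0.370 and 0.369 CPM in controls and at 1.54, 1.45 and 1.01 in models.

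Of the 15 blood-brain barrier endothelium genes 14 had a higher mean and 3 an unadjusted p under 0.05 (2.53% of all genes tested), and all models stood above all controls in 3 (4.95%). Those with such a p numbered 1 without control 1, 1 without model 2 and 7 without model 1. Flt1, a VEGF receptor, stood at 15.2, 21.1 and 16.4 CPM in controls and at 21.6, 28.7 and 24.4 in models. Slco1a4, an organic anion transporter of brain capillaries, stood at 13.2, 19.4 and 13.7 CPM in controls and at 20.1, 25.5 and 24.2 in models. Among 17 collagen IV and basement membrane genes 14 had a higher mean and 2 an unadjusted p under 0.05 (2.53% of all genes tested). Their median log2 fold change was 0.12, and without control 1 there were 9 higher and 8 lower. Summed, they stood at 1189, 2043 and 1216 CPM in controls and at 751.6, 1192 and 1395 in models, and the groups overlapped. Nid2, a basement membrane nidogen with low counts, stood at 1.20, 0.801 and 0.295 CPM in controls and at 2.68, 1.82 and 2.77 in models. Adamts1, a matrix protease, stood at 4.35, 6.78 and 5.31 CPM in controls and at 10.9, 10.4 and 8.57 in models. Timp4, an inhibitor of metalloproteases, was lower, at 71.5, 81.9 and 65.0 CPM in controls and 46.3, 58.9 and 63.9 in models.

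Chaperones, which keep proteins folded, had lower means in model. Of the 17 heat shock chaperone genes 16 had a lower mean, 7 an unadjusted p under 0.05 (1.98% of all genes tested) and in 4 all models stood below all controls (5.23%), with a median log2 fold change of -0.25. Hspe1, which encodes the mitochondrial chaperonin HSP10, stood at 136, 135 and 159 CPM in controls and at 97.5, 115 and 104 in models (log2 fold change -0.44, SE 0.11, adjusted p 0.899 by edgeR). Its partner Hspd1, which encodes HSP60, stood at 208, 201 and 204 CPM in controls and at 171, 163 and 163 in models (log2 fold change -0.30, SE 0.08, adjusted p 0.986 by edgeR). Both groups were tight in Hspd1 and did not overlap in either gene. Hsph1, a nucleotide exchange factor of HSP70, stood at 397, 326 and 467 CPM in controls and at 336, 315 and 263 in models (log2 fold change -0.38, SE 0.15, adjusted p 0.986 by edgeR). The groups overlapped in Hsph1. Summed over the list, controls stood at 8690, 7734 and 9891 CPM and models at 7181, 7603 and 6996, with control 3 the highest. Without control 3 the list had 2 members with an unadjusted p under 0.05 and a median of -0.15, without model 3 it also had 2, and without control 1 it had 4.

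Hspe1 and Hspd1 lie head to head and start from a shared region. The heat shock element, read here as GAA, TTC and GAA with any pair of bases (NN) after each of the first 2 triplets, was searched on both strands in the 250 bases before the start of every gene. It lay in 153 of 32851 windows (0.466%), and in 2 of the 12 chaperone genes with a window, Hspe1 and Hspd1. A listed gene counted if any of its windows matched, so the share of genes and the share of windows are unlike measures. Because Hspe1 and Hspd1 start from a shared region, their matches may be the same stretch and are not independent. The stretch shown carries 2 overlapping matches on opposite strands, in capitals, 71 bases before the start of Hspe1.
Hspe1, chr1:55088053-55088082, plus strand: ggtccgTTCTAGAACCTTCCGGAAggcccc
Hspa8, the constitutive HSP70, stood at 2921, 2618 and 3364 CPM in controls and at 2334, 2673 and 2433 in models, and the groups overlapped. The classic inducible gene Hspa1a stood at 12.1, 15.1 and 21.4 CPM in controls and at 14.99, 16.5 and 14.1 in models. In the unfolded protein response list 14 of 16 members had a lower mean, 3 with an unadjusted p under 0.05, against 1.98% of all genes tested (1 without control 3, 5 without control 1). Hyou1, a chaperone of the endoplasmic reticulum, stood at 85.9, 96.5 and 97.4 CPM in controls and at 76.7, 72.4 and 74.4 in models (log2 fold change -0.32, SE 0.09, adjusted p 0.986 by edgeR).

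**Figure D4:**
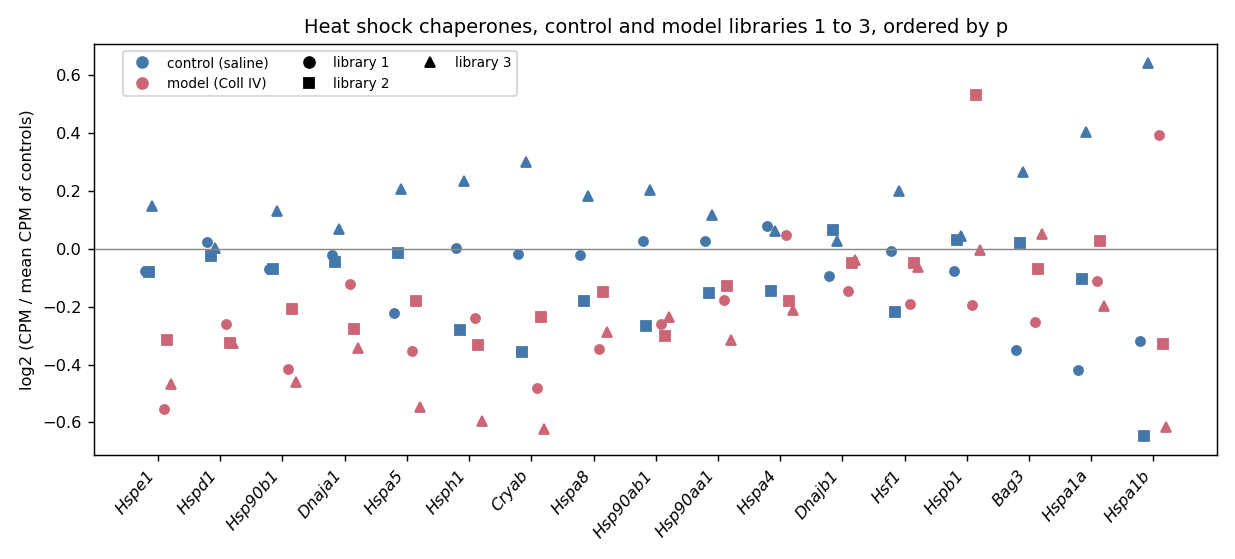
log2 of the CPM of each library over the mean CPM of the 3 controls (y axis) for the 17 heat shock chaperone genes (x axis, in order of p); points are libraries, blue for control and red for model, with the marker giving the number. The models lie below the controls in the leading genes, Hspe1 at 97.5 to 115 against 135 to 159 CPM and Hspd1 at 163 to 171 against 201 to 208 CPM.

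Genes of the hypothalamus and striatum, which lie near the thalamus, had lower means in model. Of 14 hypothalamic genes 12 had a lower mean and 2 an unadjusted p under 0.05 (1.98% of all genes tested), with a median log2 fold change of -0.64 (-0.13 without control 2). Pomc, the precursor of melanocortins, stood at 3.23, 64.8 and 32.8 CPM in controls and at 2.28, 4.05 and 3.75 in models (log2 fold change -3.31, SE 1.04, adjusted p 0.986 by edgeR). Agrp, the melanocortin antagonist of the arcuate nucleus, stood at 0.318, 7.82 and 1.92 CPM in controls and at 0.123, 0.371 and 0.446 in models (log2 fold change -3.38, SE 1.23). In both, control 1 lay close to the models and the difference rested on controls 2 and 3. Nkx2-1, a transcription factor of the ventral forebrain and hypothalamus, stood at 8.65, 14.7 and 5.97 CPM in controls and at 2.96, 2.16 and 4.28 in models (log2 fold change -1.64, SE 0.38, adjusted p 0.814 by edgeR), and Isl1 stood at 12.7, 15.8 and 7.22 against 3.95, 5.53 and 6.01 CPM. All models stood below all controls in both. Neither gene is a member of the hypothalamic list, in which 0 of 14 members had all models below all controls (5.23% of all genes tested). Of 13 striatal genes 13 had a lower mean in model, 2 with an unadjusted p under 0.05 (1.98% of all genes tested), with a median log2 fold change of -1.50. Drd2, the dopamine D2 receptor, stood at 50.8, 18.1 and 11.5 CPM in controls and at 4.38, 8.46 and 11.9 in models (log2 fold change -1.71, SE 0.65, adjusted p 0.986 by edgeR). Without control 1 the striatal list had 6 members higher and 7 lower and a median of -0.01. The part of striatal and hypothalamic tissue in controls 1 and 2 in these differences was not tested.

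The libraries were chosen in both groups for their thalamic RNA, which constrains how far thalamic neuron genes can differ, so these are described without a test. Of 18 members 15 had a lower mean in model, with a median log2 fold change of -0.22, which was -0.10 without control 1 or without model 1 and -0.31 without model 2. Tnnt1, a troponin that thalamic neurons also express, stood at 14.8, 14.9 and 17.5 CPM in controls and at 9.81, 12.7 and 8.12 in models. In Tcf7l2, whose values are given in the opening, models 1 and 3 lay below the controls and model 2 lay above them. Slc17a6, the vesicular glutamate transporter of thalamic neurons, stood at 120, 184 and 138 CPM in controls and at 78.3, 150 and 133 in models, and the groups overlapped. C1ql1, a synaptic organiser also made by oligodendrocyte precursors, was among the lower genes with the lowest p, at 36.6, 39.9 and 32.6 CPM in controls and 20.3, 24.6 and 25.9 in models (log2 fold change -0.62, SE 0.13, adjusted p 0.735 by edgeR). Vgf, a neuropeptide precursor, stood at 314, 354 and 354 CPM in controls and at 257, 259 and 259 in models (log2 fold change -0.40, SE 0.09, adjusted p 0.803 by edgeR). The models were nearly identical in Vgf and lay below all controls.

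Nat10, the target of remodelin, did not separate the groups: it stood at 16.7, 17.4 and 15.8 CPM in controls and at 16.9, 14.5 and 15.2 in models (log2 fold change -0.10, SE 0.12, adjusted p 0.986 by edgeR). Of the 18 genes of the NAT10 and RNA modification list 11 had a higher mean and 7 a lower one. Mettl14, a subunit of the m6A writer, was the single member with an unadjusted p under 0.05, against 1.98% of all genes tested as lower. It stood at 23.8, 23.8 and 24.2 CPM in controls and 20.8, 19.9 and 20.1 in models. With 1 library left out, 0 members were lower with such a p, save 1 without model 1.

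**Figure D5:**
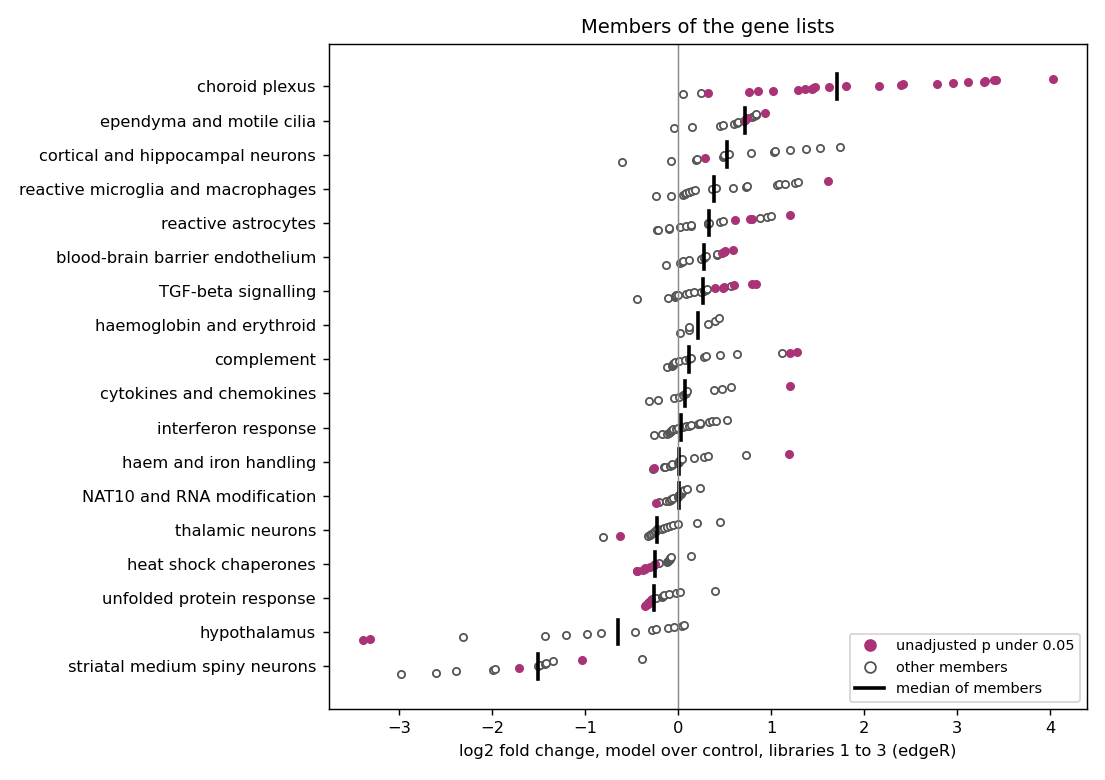
log2 fold change of model over control in libraries 1 to 3 (x axis) of every tested member of 18 gene lists (rows); filled points have an unadjusted p under 0.05 and black bars are the medians. The choroid plexus list has the highest median of the lists drawn, 1.71, and the striatal list the lowest, -1.50.

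A few genes differed between libraries 1 to 3 and libraries 4 to 6 in how model compared with control. The difference between the sets was tested in 1 fit of the 12 control and model libraries over 19016 genes. It was positive in 3 genes (0.0158%) and negative in 7 (0.0368%) at an adjusted p under 0.05 by edgeR. With 1 library left out the count ranged from 0 to 104 positive and from 0 to 92 negative, both highest without control 3 and both 0 without control 4, control 5, model 4 or model 5. Enpp2 had a log2 fold change of 1.47 in libraries 1 to 3 and of -0.16 in libraries 4 to 6, where controls stood at 245, 222 and 220 CPM and models at 218, 179 and 217. The choroid plexus list as a whole was higher in model in libraries 4 to 6 too. Its mean log2 CPM was -0.117, 0.124 and 0.460 in controls 4 to 6 and 1.69, 1.56 and 1.18 in models 4 to 6. The ependyma list stood at -0.701, 0.447 and 0.523 in these controls and at 1.195, 1.96 and 1.68 in these models. No list was tested for a difference between sets. Nkx2-1 had a log2 fold change of -1.64 in libraries 1 to 3 and of 3.46 in libraries 4 to 6, where controls stood at 0.266, 0.181 and 0.854 CPM and models at 4.27, 5.43 and 3.66. Hkdc1 was higher in model in libraries 1 to 3 and lower in libraries 4 to 6, where models stood at 9.39, 8.62 and 7.33 CPM, below the controls. The sets were separated by their region genes, and since Nkx2-1 is such a gene its difference between sets is not independent of the choice. Trpv4 and Kcne2 did not pass this test, at an adjusted p of 0.0737 and 0.699 by edgeR. Kcne2 stood at 0, 0.109 and 0.273 CPM in controls 4 to 6 and 0.692, 0.307 and 0.431 in models 4 to 6.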

How the data were processed

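RNA was sequenced from mouse tissue labelled thalamus in 18 libraries, 6 per group. Reads were processed with HISAT2, featureCounts and the GRCm39 build, per the submitters' processing notes, with no version numbers known here. The authors deposited whole-number counts per gene for each library, and FPKM values beside them. The strandedness of counting is not given, so overlapping and antisense genes cannot be told apart.

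Group and number were taken from the labels, which do not define libraries 1 to 3 and 4 to 6 as sets. Counts of the 6 libraries were filtered (edgeR filterByExpr), scaled by TMM and tested with the quasi-likelihood test of edgeR 4.0.16 (R 4.3.3), with Benjamini-Hochberg adjustment over all genes tested and a threshold of 0.05. CPM is on that TMM scale, and list scores are mean log2 CPM with a prior count of 2. The tests were tried on simulated data with known changes. Alternatives were DESeq2 1.42.0, limma 3.58.1 (voom, and log2(FPKM + 1)), other scalings and filters, other libraries in the fit, control 1 thinned to 31113331 counts, a replicate block, and each library left out. FPKM served in that alternative only.

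Libraries, gene lists and tests were chosen with earlier results of these data known. Genes were named as given (Igfn1, Hkdc1, Ttr, Nat10), as the 12 of lowest p and the 6 of largest fold, higher or lower, whose higher group averaged 1 CPM or more, as the 3 of lowest p in each list, or as the 6 of lowest p in the test between sets. Any other gene printed was chosen after its values were seen. A share of counts reflects counting error as well as the spread between samples, and with 3 libraries a group small differences could not be resolved.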

Additional observations from a re-analysis of the deposited data

Results flagged for a closer look

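Each gene here had a difference between model and control that itself differed between libraries 1 to 3 and libraries 4 to 6 at an adjusted p under 0.05 by edgeR, on 12 libraries. The value is the log2 difference in libraries 1 to 3 minus that in libraries 4 to 6. Because libraries 1 to 3 and 4 to 6 differ in region genes, a hypothalamic or other regional gene is not independent of that split, and what sets the differences was not tested.

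Positive values were found for Enpp2 (1.63), Hkdc1 (2.70) and Hgf (1.705). Hgf, hepatocyte growth factor, stood at 1.32, 1.05 and 1.11 CPM in controls 1 to 3 and 2.22, 2.09 and 2.20 in models 1 to 3, and at 8.97, 9.07 and 10.0 CPM in controls 4 to 6 and 6.57, 4.599 and 4.67 in models 4 to 6. Model was thus above control in the first set and below it in the second. Hkdc1 was chosen from its values in this comparison.

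Negative values were found for Gstm6 (-1.87), Sfta3-ps (-5.40), Gal (-5.86), Nkx2-1 (-5.10), Cckar (-8.59), Zar1 (-4.76) and Kcnj5 (-2.80). Gal, which encodes the neuropeptide galanin, stood at 11.7, 32.7 and 14.999 CPM in controls 1 to 3 and 12.9, 17.1 and 20.1 in models 1 to 3, which overlapped, and at 0.0665, 0.362 and 0.0683 CPM in controls 4 to 6 and 12.2, 9.11 and 8.76 in models 4 to 6. Cckar, a cholecystokinin receptor, was at 0 in controls 4 to 6, so its fitted value depends on the prior count and sets no bound. In Gstm6, Sfta3-ps, Nkx2-1 and Zar1 every model lay below every control in libraries 1 to 3 and above every control in libraries 4 to 6.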

How the results depend on the processing

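The log2 fold changes of 49 genes were followed under 17 alternative settings. The 49 leave out many of the genes printed above and include Tmem72 and Hspa5, which are not. Of these values, 779 kept their direction and their side of the threshold, 53 passed it only under the alternative, and 1 changed sign. That was Tcf7l2, at 0.0934 without model replicate 1, with a range of -0.70 to 0.0934 over the libraries left out in turn. Genes outside the 49 changed sign too: in the striatal list 0 members were higher in the main fit and 6 without control 1. No gene passed the main test, so none could lose its call, and remaining uncalled counted as the same side. Most settings also reuse the same libraries, so the 779 are not independent evidence. Genes higher in model numbered 11 with no filter, 54 with DESeq2, 10 with limma on FPKM, 7 in the 12-library fit and 0 to 10 with 1 library left out; genes lower numbered 9 with DESeq2, 1 with limma on FPKM and 0 to 1 with 1 library left out. Genes with all models above all controls numbered 1593 to 2100 with 1 library left out, and genes with all below 1720 to 2061, or 1439 with no filter; fewer libraries, or more genes, are compared there. Positive differences between the sets numbered 33 with no filter, 120 with DESeq2, 1 with limma-voom, 0 with all 18 libraries and 0 to 104 with 1 library left out; negative ones numbered 46, 224, 0, 0 and 0 to 92, and 4 at a mean CPM of at least 1. The cause of these shifts was not tested. Same-numbered control and model libraries deviated together with correlations of 0.251, 0.162 and -0.182, and the other pairs with -0.409 to 0.301. These values show no clear pairing by number. They cannot exclude one, because the libraries differed in RNA of neighbouring regions. With the replicate block the 6-library test called 0 genes higher and 0 lower, and the difference between sets 1 and 0. Depth differed mainly in control 1, and thinning it left 0 genes called.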

Other observations

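Transthyretin carries retinol and thyroid hormone. Of the 18 genes of retinol and thyroid hormone handling, Ttr among them, 13 had a higher mean in model and 5 a lower one. An unadjusted p under 0.05 by edgeR was found in 4 of the higher members, Ttr included (2.53% of all genes tested). It was found in 3 of the lower ones (1.98%). Ttr was chosen from its values, so its place among the 4 supports nothing. Without model 1 or without model 2 there was 1 lower member with such a p, and the median of the list, 0.18, was 0.055 without control 2. Slco1c1, a thyroid hormone transporter, stood at 26.2, 15.7 and 24.2 CPM in controls and at 34.3, 34.7 and 29.9 in models. Stra6, the cellular receptor for retinol-binding protein, stood at 2.06, 1.88 and 4.16 CPM in controls and at 6.11, 7.59 and 4.70 in models. Crabp1, a retinoic acid-binding protein, was lower instead: the controls had 8.04, 14.8 and 5.31 CPM and the models 2.04, 2.09 and 4.64, and control 2, the library with the most hypothalamic RNA, was the highest.

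Mybpc1, a myosin-binding protein of muscle, stood at 0.192, 0.246 and 0.737 CPM in controls and at 2.53, 0.337 and 1.84 in models, with model 2 lowest of the models as in Igfn1, and the groups overlapped. Of the 18 sarcomere and muscle genes tested, Igfn1 among them, 11 had a higher mean and 7 a lower one. Jam2, a junctional adhesion molecule, stood at 52.1, 50.7 and 46.3 CPM in controls and at 34.3, 36.5 and 44.3 in models, while Esam, an adhesion molecule of endothelium, stood at 6.54, 8.78 and 7.67 CPM in controls and at 10.1, 11.7 and 10.3 in models. The groups did not overlap in either gene.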
